A study of Homo sapiens with 22 samples.

Results

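Nucleolar ribosome biogenesis genes were examined in 11 human neuroblastoma cell lines. The set was a fixed list of 32 genes covering RNA polymerase I, the small nucleolar ribonucleoproteins (snoRNPs) and the assembly factors of both ribosomal subunits. Each gene was read from the brightest probeset that names it alone, and 27 of the 32 genes were measured in this way, among 19775 genes in all. The other 5 were not analysed here. The probesets of NOP56, DKC1, BOP1 and PPAN also name another gene, and no probeset named GNL3 in the annotation used.

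In the nucleolus, RNA polymerase I transcribes the ribosomal RNA precursor, and snoRNPs guide the methylation and pseudouridylation of that precursor. The small subunit processome and the pre-60S factors then cut and fold it into the small (40S) and large (60S) subunits. Ribosome production is a major use of energy in growing cells, and MYC proteins, including MYCN in neuroblastoma, are known to drive many of its genes through the E-box sequence CACGTG.

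Each line was cultured for 18 h at 1% O2 (hypoxia) or 20% O2 (normoxia), and RNA of each culture was hybridised to 1 Affymetrix HG-U133 Plus array, 22 arrays in all. For 9 lines the labels gave a name and no genotype: SK-N-SH, ACN, SHEP-2, LAN-1, SK-N-BE2(C), GI-ME-N, SK-N-F1, IMR-32 and GI-LI-N. The line SHEP21N was sampled in 2 states. SHEP21N without MYCN overexpression was kept in 50 ng/mL tetracycline, and SHEP21N with MYCN overexpression (SHEP21N_MYC) was kept without it, so MYCN and tetracycline cannot be told apart. Both SHEP21N states, and every other line, had 1 array per condition. A level is given below as the signal in multiples of its array median, which lay between 69.4 and 133.6, and a difference or change as log2 of the ratio of such levels. Less RNA per cell and fewer cells of a type cannot be told apart in such bulk RNA.

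Some arrays stood apart. The normoxic SHEP21N_MYC array had 3'/5' ratios, a measure of RNA degradation, of 67.3 for GAPDH and 94.0 for ACTB, against at most 1.40 and 5.05 on the other 21 arrays. At the less bright of the 2 brightest MYCN probesets, that array had a signal of 13.7, below the 28.7 of normoxic SHEP21N, whereas the hypoxic array with MYCN overexpression had 830.2 against 25.3. The SHEP21N arrays had a lowest signal of 3.3 and the others at most 0.803, so array processing and line cannot be told apart there. Normoxic arrays of SK-N-SH, GI-LI-N and IMR-32 correlated at r of 0.900 to 0.906 over all probesets, as closely as the hypoxic and normoxic array of 1 line (0.820 to 0.923), and the 3 SHEP lines share an origin, so the lines are not all independent.

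The first comparison asked how ribosome biogenesis genes differed between SHEP21N with and without MYCN overexpression. On the hypoxic arrays, 26 of the 27 genes were higher with MYCN, against 51.3% of all genes and 52.0% of the 12519 genes with a mean signal of at least 100. Their median difference was 0.40 (1.32-fold), against 0.02 over all genes. The differences were small for single genes. RRP9 was the single gene at least 2-fold higher, where 11.6% of all genes and 4.82% of those with a mean signal of at least 100 were, and 0 were at least 2-fold lower, where 12.7% of all genes were. At 1.5-fold, 10 of the 27 were higher, against 20.6% of all genes and 13.5% of the brighter ones, and 0 were lower, against 21.0% of all genes. With 1 array on each side no test was possible, and every value here compares these arrays.

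All 4 measured subunits of RNA polymerase I were listed higher with MYCN, by a median of 0.42. POLR1C, a subunit shared with RNA polymerase III, stood at 18.9 times the array median without MYCN and at 37.7 with it, a difference of 1.00. POLR1E, an initiation and elongation subunit, went from 18.5 to 26.9, and POLR1B, one of the pair of catalytic subunits, from 28.1 to 34.8. The other catalytic subunit, POLR1A, was at 9.10 and 9.15. The subunits thus ranged from a difference of 0.01 to 1.00, just under 2-fold.

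The 5 measured snoRNP proteins were all listed higher with MYCN. FBL, the methyltransferase of box C/D snoRNPs, had 206.5 without and 255 with MYCN, and its partner NOP58 had 30.6 and 36.2. In box H/ACA snoRNPs, which carry out pseudouridylation, NOP10 had the widest difference, 125.9 against 170.9 (0.44). GAR1 followed with 0.39 and NHP2 with 0.12. Among the abundant nucleolar chaperones, the values were 0.35 for NCL (nucleolin), 0.09 for NPM1 (nucleophosmin) and 0.23 for NOLC1, which escorts snoRNPs. These depended on the processing: with the mean of all probesets NCL had -0.86 and NOLC1 0.66, and with quantile normalization NPM1 had 0.40.

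The 7 genes of the small subunit processome and 40S assembly were all higher with MYCN, by a median of 0.67 (1.60-fold). RRP9, a protein of the U3 snoRNP that starts the processing of the precursor, went from 9.98 to 25.5 times the array median, a difference of 1.36 and the widest of the 27. NOP14 and NOL6, components of the processome, went from 14.2 to 25.6 and from 8.81 to 15.8. Differences of 0.67 were found for WDR43, which couples transcription to processing, and for BYSL, which acts late in 40S assembly. RRP12, an export factor, had 0.60 and UTP20, a large scaffold protein, 0.11.

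In the PeBoW complex, needed for maturation of the large subunit, PES1 had 54.7 without and 82.3 with MYCN, and WDR12 had 48.1 and 73.3. Of the 6 genes for 60S assembly, 5 were higher. MRTO4, which holds the place of the ribosomal stalk, went from 25.9 to 44.2 (0.77), and NOP2, an RNA methyltransferase, from 21.4 to 30.8 (0.53). The RNA helicase DDX21 had 0.40, RRS1 0.27 and NOP16 0.15. NIP7 was the single gene of the 27 that was lower, at 41.2 without and 39.8 with MYCN. With the values as deposited and with quantile normalization POLR1A was lower as well, at -0.03 and -0.0047, which left 25 of 27 higher.

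**Figure D1:**
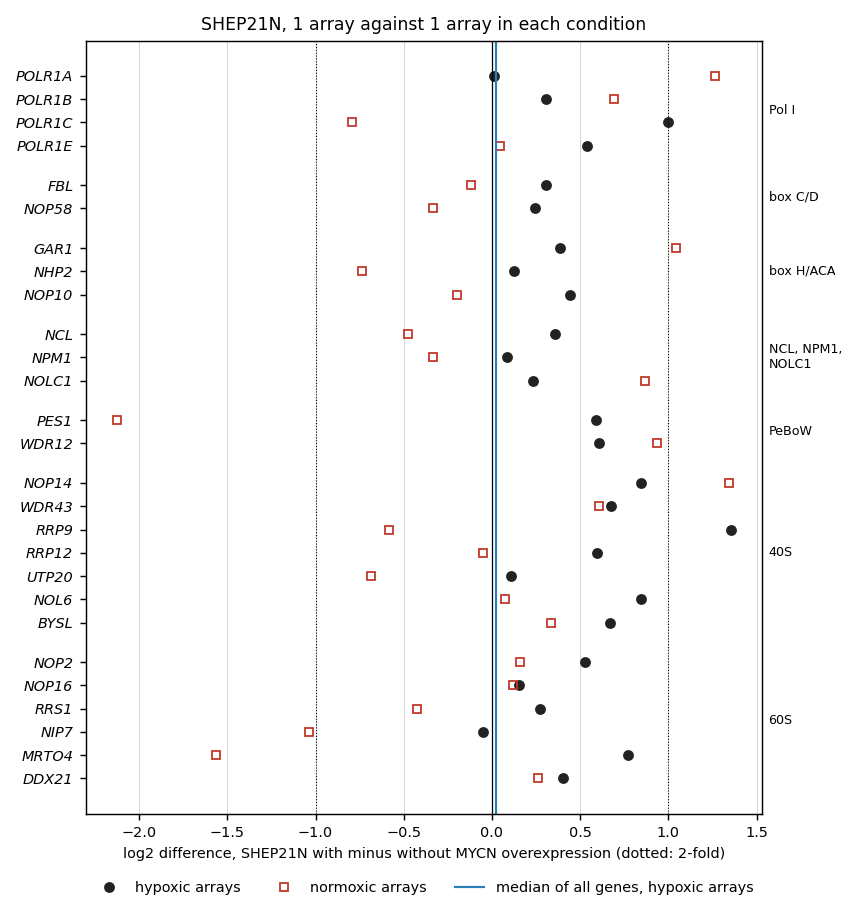
Log2 difference between SHEP21N with and without MYCN overexpression for the 27 genes, grouped by role, on the hypoxic arrays (filled circles) and on the normoxic arrays (open squares), with 1 array in each state. The hypoxic values lie right of 0 for 26 genes, around a median of 0.40, while the normoxic values scatter from -2.13 to 1.34 around -0.05.

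The normoxic pair did not show this shift. There 13 of 27 genes were higher with MYCN, against 46.2% of all genes, and the median was -0.05. At least 2-fold higher were 3 genes (14.8% of all genes), NOP14, POLR1A and GAR1, with 1.34, 1.27 and 1.04. At least 2-fold lower were 3 others (17.7% of all genes), PES1, MRTO4 and NIP7, with -2.13, -1.56 and -1.04. The side with MYCN in this pair is the array with the high 3'/5' ratios and the low MYCN signal. The side without MYCN, normoxic SHEP21N, had 1.30 for GAPDH and 5.05 for ACTB, the highest ACTB ratio after that array. The hypoxic pair had GAPDH ratios of 1.11 with and 1.14 without MYCN, and ACTB ratios of 2.85 and 2.70.

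Other probesets of the same genes were read as a further check. Of 23 additional single-gene probesets with a mean signal of at least 100, from 13 of the genes, 18 were higher with MYCN on the hypoxic arrays. The probesets of a gene share its RNA and are not replicates. The other POLR1C probeset had a difference of 1.33, and that of NOL6 with a mean signal of 386 had 0.56. The 5 that were lower belonged to RRP12 (-1.52), NOP16 (-0.78), WDR12 (-0.40), POLR1A (-0.30) and POLR1B (-0.01), with mean signals of 102 to 417. A dimmer probeset of NCL, with a mean signal of 90.5, had -2.08.

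MYC itself, the relative of MYCN, had a signal of 473.9 without and 110.3 with MYCN on the hypoxic arrays (-2.07), while MAX, the partner of both proteins, had 6230 and 7535. The brightest MYCN probeset read 12.7 and 6.0, near the lowest signals of these arrays. S-phase genes, which mark dividing cells, were higher in 11 of 12 cases with a median of 0.41. Their part in the difference was not tested.

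Promoter windows of these genes were searched for the E-box CACGTG because 26 of them lay on the same side in that pair. A window ran from 250 bases before to 50 bases after the gene start (RefSeq, GRCh38.p14), and 22 of the 27 measured genes had one. The sequence reads the same on both strands. It was found in 13 of the 22 genes (59.1%), against 10.9% of the 15384 measured genes with a window. Counted by window, as a gene can have several, it was in 13 of 26 (50.0%), against 7.26% of all 35116 windows. All 6 genes of the small subunit processome and 40S assembly with a window held it, as did 3 of 5 for 60S assembly and 0 of 3 for RNA polymerase I. The 6 former and the 2 others with the widest differences between the hypoxic SHEP21N arrays, PES1 and MRTO4, are shown with 12 bases on each side, on the strand of the gene and with the E-box in capitals.
RRP9, chr3:51941892-51941921, minus strand: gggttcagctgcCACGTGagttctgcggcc
NOP14, chr4:2963374-2963403, minus strand: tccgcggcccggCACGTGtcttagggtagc
NOL6, chr9:33473894-33473923, minus strand: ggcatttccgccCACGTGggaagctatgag
WDR43, chr2:28894658-28894687, plus strand: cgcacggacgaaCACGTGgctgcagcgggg
BYSL, chr6:41921515-41921544, plus strand: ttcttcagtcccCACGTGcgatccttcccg
UTP20, chr12:101280083-101280112, plus strand: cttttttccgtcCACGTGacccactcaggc
PES1, chr22:30591880-30591909, minus strand: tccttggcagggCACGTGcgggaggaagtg
MRTO4, chr1:19251807-19251836, plus strand: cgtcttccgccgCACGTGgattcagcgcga

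The bases around the E-box differed from gene to gene, and in these 8 windows it began between 10 bases before and 29 bases after the gene start. As a description, the 13 genes with the E-box had a median difference between the hypoxic SHEP21N arrays of 0.59, within 0.11 to 1.36. The 9 genes without it had a median of 0.15, within -0.05 to 1.00, so both ranges overlapped. The split also runs with role, as all 6 small subunit genes with a window held the E-box and 0 of 3 RNA polymerase I genes. In the 2 comparisons given below, the medians with and without the E-box were close. They were 0.05 and 0.13 for the MYCN signal, and -0.143 and -0.139 for hypoxia. A match of these letters is not a binding site, and binding was not measured. The same letters were in 11 of 37 further genes of the small subunit processome and 40S assembly and in 12 of 39 further genes for 60S assembly, shares of 29.7% and 30.8%. They were in 1 of 13 further RNA polymerase I genes (7.69%), 0 of 8 snoRNP assembly factors and 2 of 16 exosome and trimming genes (12.5%). Outside this machinery, they were in 2 of 4 known hypoxia genes (50.0%), 2 of 10 S-phase genes (20.0%) and 2 of 9 MYC network genes (22.2%). Of the cell type markers described below, 1 of 7 adrenergic (14.3%) and 1 of 6 mesenchymal ones (16.7%) held them.

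The next comparison set the normoxic levels of the 11 lines against their MYCN signal. At the brightest MYCN probeset, 6 lines had signals from 5788 (SK-N-F1) to 55613 (SK-N-BE2(C)), namely these 2 with GI-LI-N, IMR-32, SK-N-SH and LAN-1. The other 5, ACN, GI-ME-N, SHEP-2 and both SHEP21N states, had 5.43 to 55.3. SHEP21N_MYC was thus placed among the low-MYCN lines, although its label gives MYCN overexpression. The brightest and second MYCN probesets read 19.0 and 13.7 on its normoxic array and 6.0 and 830.2 on its hypoxic array. A low reading at the brightest one thus does not show that MYCN was low in this line. The division into high-MYCN and low-MYCN lines comes from the measured signal and not from the labels, and no test was run on it. In 0 of 27 genes did all high-MYCN lines lie above all low-MYCN lines, against 4.45% of all genes, and in 0 did they lie below, against 2.32%. Among as few as 27 genes, counts of 0 are near these shares. The median difference of the 27 was 0.05, against -0.05 over all genes, and 16 of 27 were higher in the high-MYCN lines, against 48.1% of all genes. The sign of the median turned with the scaling: it was -0.16 with the values as deposited (10 of 27 higher), -0.15 with quantile normalization (12 higher) and -0.17 on the hypoxic arrays (11 higher). The median also moved with the lines: it was 0.76 without both SHEP21N states (24 of 27 higher), against 0.21 over all genes. Without SHEP21N_MYC alone it was 0.21 (21 higher). With 1 line left out at a time it lay between -0.12 without SHEP-2 (10 higher) and 0.35 without GI-ME-N (24 higher).

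**Figure D2:**
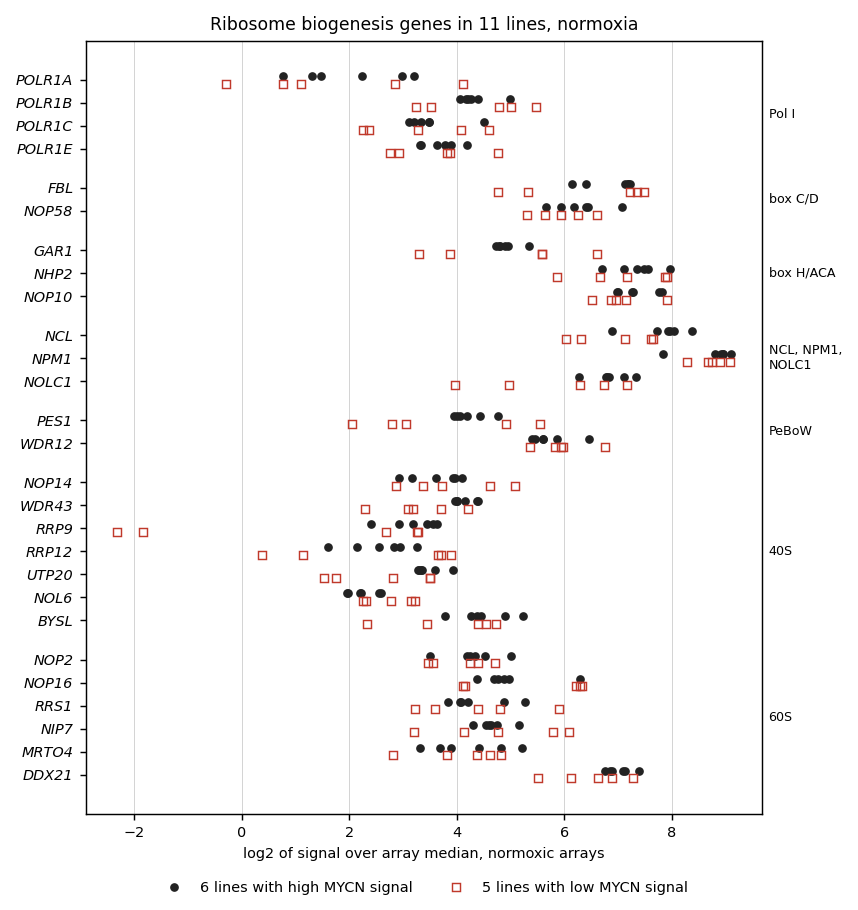
Normoxic level of each of the 27 genes as log2 of signal over array median (horizontal axis), 1 point per line, for the 6 lines with high MYCN signal (filled circles) and the 5 with low MYCN signal (open squares). The symbols overlap in every row.

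In NCL and WDR43 a single line, SK-N-F1 and GI-ME-N in turn, kept the groups from separating. Without SK-N-F1, 5.63% of all genes lay above without overlap in the high-MYCN lines, and without GI-ME-N 8.86%. The levels of NCL in the high-MYCN lines ran from 118 (SK-N-F1) over a median of 247 to 331 (LAN-1). The low-MYCN lines had 65.6 in SHEP-2, 79.4 in ACN, 140.2 in SHEP21N_MYC, 194.9 in SHEP21N and 200.5 in GI-ME-N. Of the 6 high-MYCN lines, SK-N-F1 alone reached into the low-MYCN range. PES1 had the widest difference of medians, 17.5 in the high-MYCN lines and 8.36 in the low-MYCN lines (1.06), yet its highest level of all, 46.6, was in GI-ME-N, and with the mean of all probesets the difference was -0.23. NOP16 had the widest one in the opposite direction (-1.38), with 28.4 and 73.9, and the high-MYCN lines lay at 20.8 to 31.4 apart from LAN-1, which reached 78.5. For WDR43 the medians differed by 0.90 (0.21 with quantile normalization), and GI-ME-N (18.6) was the single low-MYCN line inside the high-MYCN range of 15.7 to 21.0.

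The low-MYCN lines fell into unlike levels of the genes. SHEP-2 was the lowest of the 11 lines for 14 of the 27 genes and ACN for 9, and their median deviations from the mean of the 11 lines were -1.07 and -0.91, against -0.38 and -0.33 over all genes. GI-ME-N was the highest line for 8 genes, with a median deviation of 0.64 against 0.27 over all genes. SHEP21N_MYC, the array with the high 3'/5' ratios, was highest for 7 genes, with 0.20 against 0.21 over all genes. The shares of all genes that were lowest or highest in each line are not given here, so these counts have no background. In the high-MYCN lines the medians lay between -0.08 in SK-N-BE2(C) and 0.45 in LAN-1, which was highest for 7 genes. On this scale the lines with the lowest and the highest levels of these genes were thus both among those with little MYCN signal.

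RRP9 was dim in 2 lines. Its normoxic signals of 26.7 in SHEP-2 and 36.3 in ACN lay below the medians of their arrays, so these levels have no order, while the other 9 lines had 5.30 to 12.4 times the array median. NOLC1 was at 15.7 in ACN and 31.3 in SHEP-2, and at 77.2 to 161 in the other lines. FBL was at 27.1 in SHEP-2 against a median of 144.9. NPM1, by contrast, spanned 2.41-fold, from 227 in SK-N-F1 to 548 in LAN-1.

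**Figure D3:**
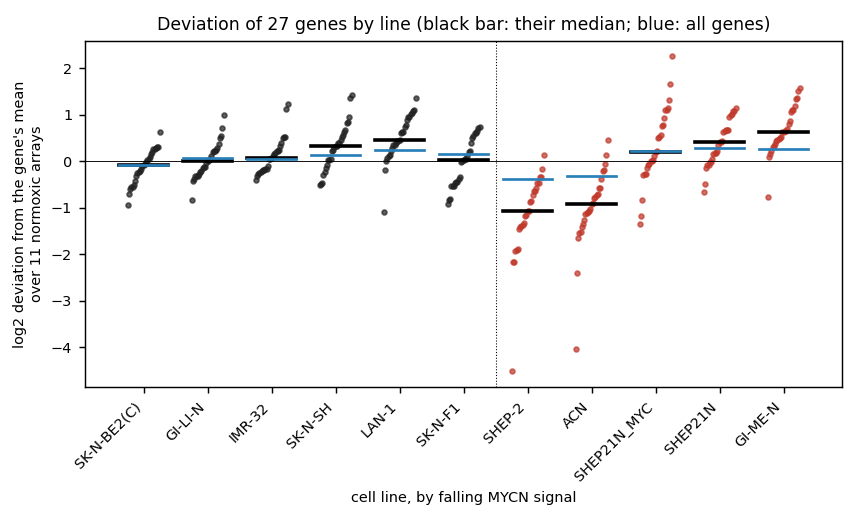
Log2 deviation of each of the 27 genes from its mean over the 11 normoxic arrays (vertical axis), by line in order of falling MYCN signal, with the median of the 27 genes (black bars) and of all genes (blue bars). SHEP-2 and ACN lie lowest, with medians of -1.07 and -0.91, and GI-ME-N highest on this scale, with 0.64.

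The scale of the arrays bears on these deviations. SHEP-2 and ACN had the highest normoxic array medians, 133.6 and 129.1. With the values as deposited, without division by the array median, their deviations were -0.55 and -0.45, against 0.14 over all genes in both lines, and with quantile normalization -0.49 and -0.35. That of GI-ME-N became 0.23 and 0.18, against -0.14 and 0.03 over all genes, and GI-ME-N was then no longer the highest. SHEP21N_MYC, the array with the high 3'/5' ratios, had 0.40 and 0.41, against 0.41 and 0.30 over all genes. SHEP21N had 0.39 and 0.38, against 0.26 and 0.24 over all genes. MYC signals also differed among the low-MYCN lines, at 6964 in ACN, 2298 in GI-ME-N, 486 in SHEP21N, 484 in SHEP-2 and 77.0 in SHEP21N_MYC. Their part in the deviations was not tested.

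Cell type markers moved with the MYCN signal. Of 9 adrenergic neuroblastoma markers, 8 were higher without overlap in the high-MYCN lines, and their summed level ran from 509 to 996 times the array median there against 3.31 to 50.6 in the low-MYCN lines. Of 10 mesenchymal markers, 4 were lower without overlap, and the sums were 184 to 339 against 717 to 2064. No marker was listed at 0, since the lowest signal on any array was 0.0921. Their part in the levels of the ribosome biogenesis genes was not tested.

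The last comparison asked whether these genes differed in hypoxia in the 11 lines. None of the 27 passed an adjusted p of 0.05 in limma (Benjamini-Hochberg over all 19775 genes), where 0.162% of all genes did, 29 of them higher (0.147%) and 3 lower (0.0152%). At an unadjusted p of 0.05, 3 of the 27 were lower and 0 higher in limma, against 7.07% and 3.6% of all genes. A t-test paired by line and run over all genes had 7 lower at an unadjusted p of 0.05, against 8.65% of all genes. After adjustment it called WDR12 alone of the 27, with an adjusted p of 0.0479, and 0.531% of all genes. The mean change was below 0 in 23 of 27 genes, against 55.6% of all genes, and the median change was -0.14, against -0.04. Known hypoxia genes responded in the same lines: all 6 of BNIP3, PDK1, ALDOC, NDRG1, DDIT4 and VEGFA were called higher, by 1.88 to 2.33.

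WDR12, of the PeBoW complex, had the smallest p. Its level ran from 41.2 over a median of 56.7 to 108 in normoxia and from 30.5 over 40.9 to 73.3 in hypoxia. The ranges overlapped, but the level was lower in hypoxia in 10 of 11 lines, and SK-N-SH, with 48.6 in normoxia and 53.2 in hypoxia, was the exception. The mean change was -0.37 with a standard error of 0.09 (limma, adjusted p = 0.198). Its other 2 probesets had mean changes of -0.04 and -0.07, and with the mean of all probesets the change was -0.16 (limma, adjusted p = 0.656). GAR1, of box H/ACA snoRNPs, ran from 9.88 over 29.6 to 98.1 in normoxia and from 10.3 over 22.1 to 57.3 in hypoxia. It was lower in 9 lines, with a mean change of -0.34 ± 0.10 (SE, n = 11 lines) and an adjusted p of 0.276 in limma. NOLC1 was lower in 9 lines as well, with -0.27 ± 0.12 (SE, n = 11 lines) and an adjusted p of 0.452 in limma, and its widest change was in GI-ME-N, from 107 to 55.4. With the mean of all its probesets the change was -0.11 (limma, adjusted p = 0.816).

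The groups by role had median changes between -0.20 and -0.02. All 3 box H/ACA genes, all 3 chaperones and all 6 genes for 60S assembly had a mean change below 0, as did 6 of 7 for 40S assembly and 3 of 4 subunits of RNA polymerase I. The 4 genes with a mean above 0 were PES1 (0.26), RRP9 (0.22), POLR1C (0.18) and FBL (0.09). All 4 were higher in hypoxia in SHEP21N_MYC, in which PES1 had a change of 3.57, POLR1C of 1.96 and FBL of 0.77. Without that line the mean of PES1 was -0.07, that of RRP9 0.05, that of POLR1C 0.0024 and that of FBL 0.03. MRTO4 had a change of 2.65 in the same line, against a mean of -0.14 over the 11 lines. RRP9 was higher in hypoxia also in SHEP-2, with 0.200 in normoxia and 0.790 in hypoxia, and in ACN, with 0.281 and 1.11, levels near or under the array median.

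**Figure D4:**
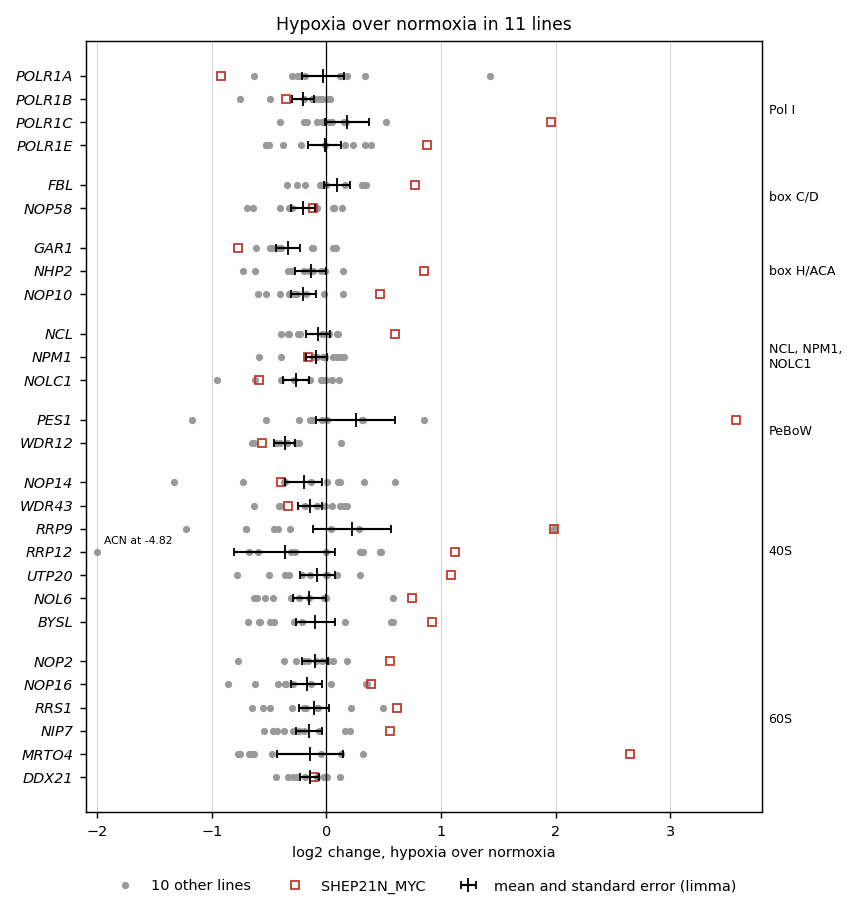
Log2 change in hypoxia over normoxia for the 27 genes, 1 point per line (grey circles for 10 lines, open squares for SHEP21N_MYC), with limma's mean and standard error over 11 lines in black; the value of RRP12 in ACN (-4.82) is drawn at the left edge. Most means lie slightly left of 0, and the far right points are those of SHEP21N_MYC; 3 points of RRP9 coincide near 1.98.

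By line, the median change of the 27 genes was below 0 in 8 of 11 lines, and the median of all genes in 9 of 11. The median of the 27 genes averaged -0.11 ± 0.28 (SD, n = 11 lines), and -0.18 ± 0.17 (SD, n = 10 lines) without SHEP21N_MYC. That of all genes averaged -0.05 ± 0.09 (SD, n = 11 lines). GI-ME-N had the lowest median, -0.44, against -0.18 over all genes, and all 27 genes were lower there, against 63.7% of all genes. With the values as deposited it had -0.21 with 22 lower, and with quantile normalization -0.25 with 25 lower, and SHEP-2 was then lowest, at -0.28 and -0.30. SK-N-F1, ACN and GI-LI-N had -0.33, -0.30 and -0.29. RRP12 had a change of -4.82 in ACN, where its hypoxic level was 0.078 times the array median.

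In 3 lines the median was above 0. In SK-N-SH, 23 genes were higher and 4 lower, where 38.6% of all genes were lower. The median of 0.13 was close to the 0.12 of all genes, and with the values as deposited it was -0.02. SHEP21N had 0.04. SHEP21N_MYC had 0.56, against -0.02 over all genes, of which 50.8% were lower. There 17 genes were higher and 6 of them at least 2-fold, where 17.3% of all genes were, and its normoxic array is the one with 3'/5' ratios of 67.3 and 94.0. Its hypoxic array is also the side with MYCN in the comparison of the hypoxic SHEP21N arrays, so both comparisons share it.

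**Figure D5:**
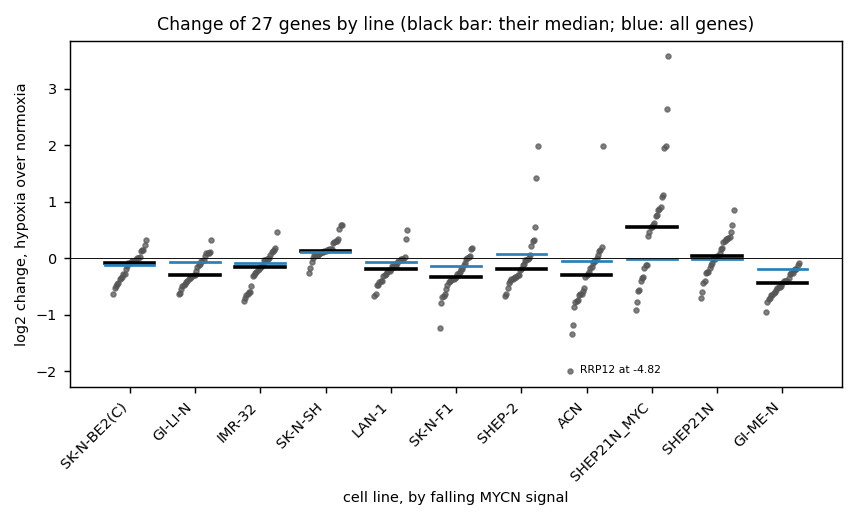
Log2 change in hypoxia over normoxia of the 27 genes (points) in each line, ordered by falling MYCN signal, with their median (black bars) and the median of all genes (blue bars). All 27 points of GI-ME-N lie below 0 on this scale, where 63.7% of all genes were lower. SHEP21N_MYC has the highest median, 0.56. The RRP12 point of ACN (-4.82) is drawn at the lower edge.

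Other genes of the same machinery, which were not on the list of 32, were read in the same way. On the hypoxic SHEP21N arrays, 13 of 13 further RNA polymerase I subunits and factors were higher with MYCN, as were 39 of 43 small subunit genes, 43 of 44 genes for 60S assembly, 10 of 11 snoRNP assembly factors and 17 of 19 exosome and trimming genes. Their medians were 0.32, 0.37, 0.49, 0.41 and 0.33. Of each list the 2 widest differences are given. They were 1.70 for NLE1 and 1.43 for URB2, both 60S assembly factors, 1.23 for UTP15 and 1.09 for NOC4L of the small subunit processome, and 1.05 for POLR1G and 0.86 for POLR1H, subunits of RNA polymerase I. For the exosome and trimming list they were 0.97 for POP1 and 0.80 for EXOSC5. NAF1, an assembly factor of box H/ACA snoRNPs, had 1.48, and NOP53 went the other way (-2.82) at a dim probeset with a mean signal of 53.7. Of the MYC network, 5 of 10 genes were higher, and 1 of 10 mesenchymal and 2 of 9 adrenergic markers.

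In hypoxia, 0 genes of each of these 5 lists were called by limma. At an unadjusted p of 0.05 in limma, 14 of 43 small subunit genes, 7 of 44 for 60S assembly, 3 of 13 for RNA polymerase I, 5 of 19 exosome genes and 0 of 11 snoRNP assembly factors were lower, and 0 were higher. Over all genes 7.07% were lower at that limit. The paired t-test called 1 small subunit gene and 1 exosome gene after adjustment and 0 of the other 3 lists, against 0.531% of all genes. The median changes ran from -0.21 for the small subunit genes to -0.15 for the snoRNP assembly factors. UTP15 and NOC4L had -0.46 and -0.50, with adjusted p of 0.249 and 0.452 in limma. S-phase genes had a median of -0.21, with 5 of 12 lower at an unadjusted p of 0.05, and whether they account for the changes was not tested.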

How the data were processed

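The intensity values were those deposited by the authors, made with the MAS5 algorithm and scaled to an average of 500, on a linear scale, without division by array or gene medians. The 22 arrays were grouped by the labels into hypoxia and normoxia and by cell line, and none was left out. Signals were expressed in multiples of the median of their array, on the log2 scale and with no floor. Of 54675 probesets, 41091 name a single gene, 1801 several and 11783 none, through the platform annotation with symbols updated to current ones. Each of the 19775 genes was represented by its brightest probeset (mean of log2 signals). For hypoxia over normoxia, limma 3.58.1 under R 4.3.3 was fitted with a block for each line, and the Benjamini-Hochberg adjustment ran over all genes, with a limit of 0.05. The lines stand for replicates, with 1 array each, and the number of arrays limits the precision. The SHEP21N and MYCN comparisons are descriptions with no test, read against the share of all genes past the same limit (2-fold, or no overlap). The members, the role groups and the further gene lists were chosen with earlier results of these data known. Genes named outside the members were MYCN, MYC, MAX, the 6 hypoxia genes and, of each further list, up to 4 called by limma and the 2 with the widest difference between the hypoxic SHEP21N arrays. Alternatives were quantile normalization, unscaled deposited values, a t-test paired by line over all genes (the methods of the study name a t-test on probesets already past 2-fold and no pairing), a floor of 50, averaging all probesets of a gene, keeping genes whose signal averaged at least 100, and lines averaged or left out. The limma script was tested on simulated data of 19775 genes. It called 67 of 100 genes planted at a log2 change of 2 and 49 of 100 planted at -1. Of 19575 genes planted at 0 it called 6. Smaller planted changes were not run. The tumor data of the study were not analysed here.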

Additional observations from a re-analysis of the deposited data

How the results depend on the processing

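In the hypoxia comparison, 0 of 27 genes were called by limma under every alternative fitted with it, and the paired t-test over all genes called 1 lower. Among genes with a mean signal of at least 100 alone, the adjusted p of WDR12 in limma was 0.0625. With 1 line left out at a time, the median change lay between -0.19 and -0.09, the genes with a mean below 0 numbered 21 to 23 and the calls numbered 0 each time. The arrays of a line pair by its name, and without the block by line limma called 0 of 27 as well. Single means near 0 changed sign: POLR1E was 0.0114 with the values as deposited and 0.0120 with quantile normalization, POLR1A 0.0230 with quantile normalization, and NOL6 0.0299 with the mean of all probesets. Between the SHEP21N arrays, the 2-fold count of 1 became 4 with the mean of all probesets and 10 at 1.5-fold. The normoxic arrays gave 3 higher and 3 lower, a median of -0.0518 and 13 of 27 higher. In the baseline comparison, the median difference turned to -0.16 with the values as deposited, -0.15 with quantile normalization and -0.17 on the hypoxic arrays. Below without overlap lay 1 gene (NOL6) with the values as deposited, against 3.72% of all genes, and 1 with quantile normalization, against 3.74%. Leaving out both SHEP21N states raised the median to 0.76, against 0.21 over all genes. Leaving out 1 line gave medians between -0.12 and 0.35, with 0 to 1 genes above and 0 below. The genes above were NCL without SK-N-F1 and WDR43 without GI-ME-N, where 5.63% and 8.86% of all genes lay above. Without ACN and SHEP-2, a choice made after seeing the data, 3 genes lay below (GAR1, RRP12 and NOL6), against 8.28% of all genes. The causes were not tested. Dim probesets and 1 array per line and condition limit all values.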
